A study of Drosophila melanogaster with 3 samples.

Results

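The locus described here is pointed (pnt, locus tag Dmel_CG17077), the gene of an ETS transcription factor that carries the output of EGFR and Ras signalling in Drosophila melanogaster. It was taken as a window of 75 kb on arm 3R of the dm3 build, with density samples from 19115041 to 19189941, and its members are the listed Yki intervals whose midpoint falls inside. There are 10 such intervals, of 1008 listed on 3R and 3990 in the whole list. The profile is of S2 cells, an established line of embryonic origin grown in culture and fixed with formaldehyde. It comes from 2 chromatin immunoprecipitation (ChIP) libraries made with an antibody against Yorkie (Yki), set against 1 input library of the same cells made without antibody. The labels name no mutation, transgene or added agent for either group. The free-text descriptions disagree with the other labels. Both ChIP libraries are described there as embryo ChIPs of GAF, a DNA-binding protein, and the input as an embryo ChIP of Yki. The titles, sources, cell line and antibody entries were followed instead. They give S2 cells throughout, with Yki as the ChIP target, and that target rests on them.

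Yki is the transcriptional coactivator held in check by the Hippo kinase cascade. It has no DNA-binding domain and reaches DNA through partners, of which the TEAD factor Scalloped is the best known. Pnt acts downstream of receptor tyrosine kinases. When EGFR is activated, the MAP kinase Rolled phosphorylates the PntP2 protein, while PntP1, made from another promoter of the same gene, is active without that step. Pnt and Yki are both known regulators of growth and cell fate in fly epithelia, and the Yki profile over pnt asks where along this gene the coactivator was found in S2 cells.

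Values are a density score sampled every 100 bp, smoothed and background-subtracted by the authors. The header of the density track joins a pair of library codes and an input code that match no sample label. They were assumed to be the libraries of this series, which gives 1 value for both ChIP libraries together. No value has a replicate error, so no test between libraries was possible and what follows is a description of 1 pooled profile. The height of an interval is the highest density sample inside it. A counting SD is given for heights. It takes 1 ChIP tag to have a centre height of 1, is a lower limit, and covers counting error only. How many reads each library had is unknown. RefSeq's Release 6 table lists bb8 next to pnt on one side and PolE1 on the other, with the non-coding gene lncRNA:CR46090 between pnt and PolE1 when genes are ordered by their starts. An annotation of dm3 was not used here, so no interval was assigned to an exon, an intron or either promoter of pnt, and some may lie in a neighbouring gene.

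Along the pnt window the profile had 4 tall intervals, 6 low ones and a raised level of background-subtracted density between them. The intervals are numbered 1 to 10 by position, and all lay between 19118742 and 19173394, a span of 54.7 kb. The first 3.74 kb and the last 16.6 kb of the window held none. The nearest listed interval below the window lay 62.6 kb from its lower edge, with a height of 355, and the nearest above it lay 305.6 kb from its upper edge, with a height of 901. The pnt intervals stood apart from other listed intervals on both sides.

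**Figure D1:**
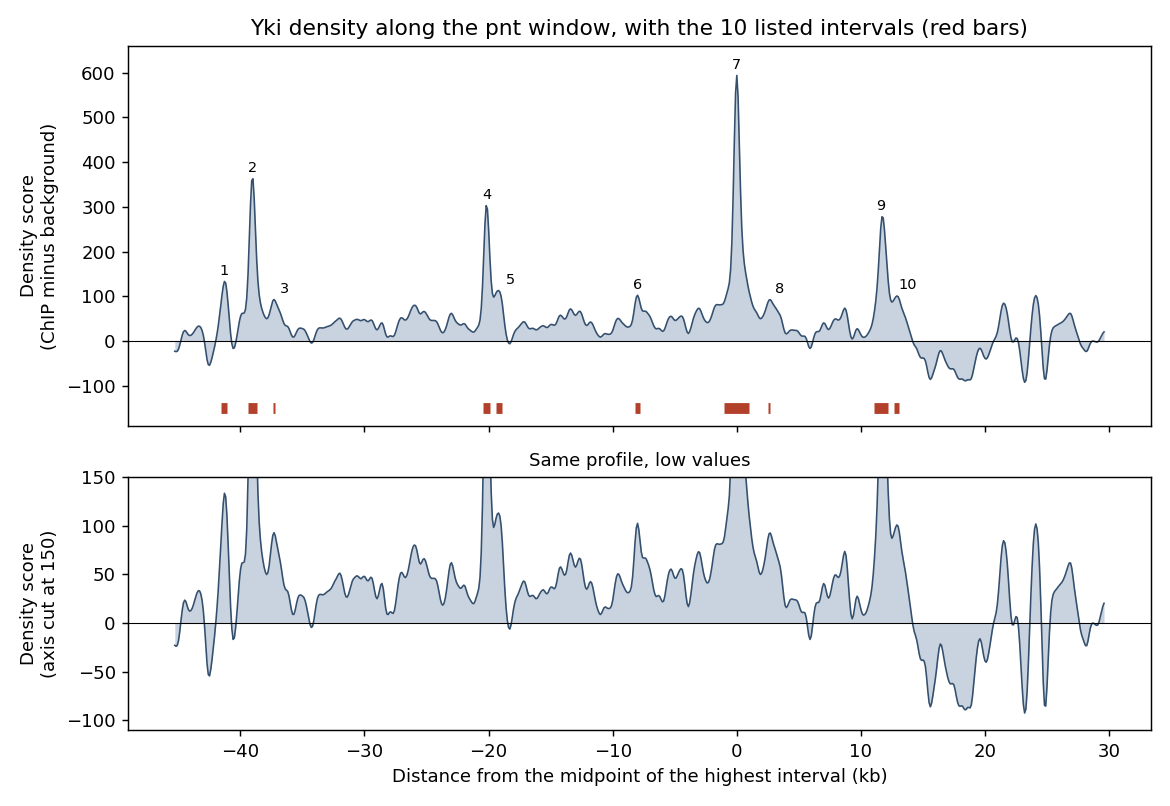
Density score (vertical axis) by distance in kb from the midpoint of the highest interval of the pnt window (horizontal axis), at full range above and with the axis limited to 150 below. Red bars mark the 10 listed intervals. The score stays above 0 over nearly the whole span from interval 1 to interval 10 and drops below 0 past interval 10.

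The tallest interval was also the widest. Interval 7, at 19159334 to 19161328, spanned 1995 bp and reached 594 at 19160341, with a counting SD of at least 20.5. Its mean density was 260, against 35.8 in the flanks 2 to 5 kb away. It had 1 local maximum, and the part at or above 0.5 of the height was 700 bp wide, so the rest of its width was a foot on both sides. Among the 1008 intervals of 3R it ranked 54 by height and 19 by width, and 218 of the 3990 in the list. Of the 19 intervals of 3R at least as wide, heights ran from 214 to 2333 with a median of 536, and 12 were lower than interval 7.

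Interval 2 was the second in height. It lay at 19120969 to 19121666 near the lower end of the group, 39.0 kb below interval 7, and reached 363 (counting SD at least 16.0). Its mean density was 285, the highest mean of the 10, against 13.5 in its flanks once samples of other listed intervals were left out. On 3R, 14.2% of intervals were as high.

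Intervals 4 and 9 followed. Interval 4, at 19139914 to 19140480, reached 303 (counting SD at least 14.6) with flanks of 38.7. Interval 9, at 19171391 to 19172550, reached 278 (counting SD at least 14.02) over 1160 bp with flanks of -3.44. Heights like these were not rare on the arm, since 18.8% and 21.03% of 3R intervals were as high.

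The other 6 intervals were low. Interval 1, at 19118742 to 19119264, reached 133 (counting SD at least 9.71), just under the median of the whole list, 135. Interval 5, at 19140929 to 19141441, reached 113. Interval 6, at 19152130 to 19152531, was the only one with no listed neighbour within 5 kb, and it reached 102. Interval 10, at 19173006 to 19173394, reached 101. Intervals 3 and 8, at 19122921 to 19123122 and at 19162829 to 19163033, were the shortest, with 202 and 205 bp and heights of 92.8 and 91.6. Their counting SDs were at least 8.10 and 8.05, and the 2 heights differed by less than that.

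Interval 8 was the only one whose mean density did not exceed its flanks. It averaged 88.8, against 98.5 in the flanks, which take in interval 7. With samples of listed intervals left out, the flanks averaged 33.3. It holds no local maximum, since the density was still climbing at its last sample and peaked at 92.5 in the next sample past its end. Across the 10 intervals the median of mean density less flank was 90.4, against 110 over all 1008 intervals of 3R. The mean exceeded the flank in 9 of 10, against 950 of 1008 on 3R (94.2%).

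Each of the 4 tall intervals had a low one on its upper side. The midpoint of interval 3 lay 1704 bp above that of interval 2, interval 5 lay 988 bp above interval 4, interval 8 lay 2600 bp above interval 7, and interval 10 lay 1229.5 bp above interval 9. The density did not return to 0 in any of these 4 gaps. From interval 1 to interval 10, 96.9% of samples outside intervals were above 0, so this does not set the pairs apart. The lowest sample was 49.8 between intervals 2 and 3, 98.1 between 4 and 5, 49.8 between 7 and 8, and 87.0 between 9 and 10. The gaps between 4 and 5 and between 9 and 10 were 448 and 455 bp long, and joining intervals across 500 bp left 8 regions. Interval 2 also had a low interval on its lower side, interval 1, with midpoints 2314.5 bp apart. Between intervals 1 and 2 the density did fall below 0, to -16.8.

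**Figure D2:**
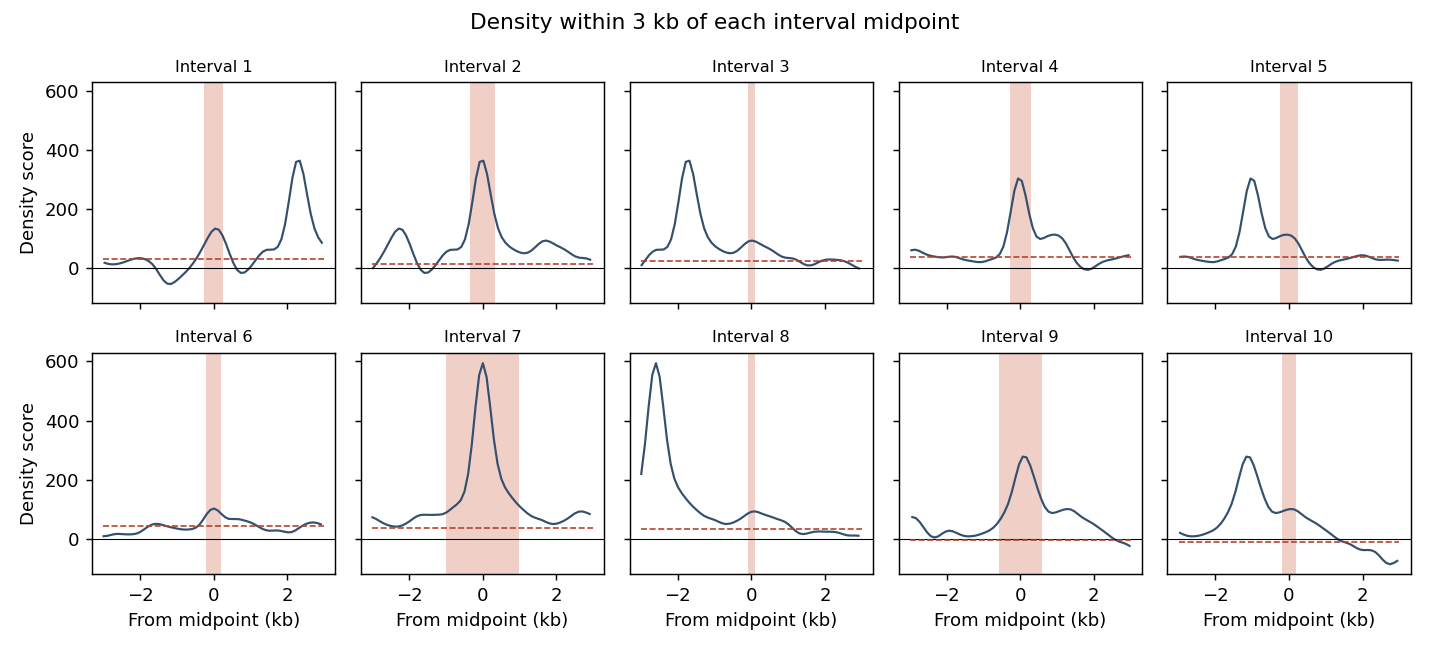
Density score (vertical axis) within 3 kb of the midpoint of each of the 10 intervals (horizontal axis, kb). The shaded band is the listed interval and the dashed line its flanking mean 2 to 5 kb away without samples of listed intervals. Intervals 2, 4, 7 and 9 hold narrow peaks of 278 to 594, and intervals 3, 5, 8 and 10 lie beside them with heights of 91.6 to 113.

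As a set, the pnt intervals were not taller than those of the arm. Their median height was 123, with a range from 91.6 to 594, against a median of 136 on 3R. In the pnt window 4 of 10 reached the median height of the list, against 50.3% of 3R intervals. Their median width was 518 bp, against 449 bp on 3R, and 2 of 10 were 1 kb or wider, against 15.7%. Both shares are near those of the arm. From midpoint to midpoint, neighbours in the pnt window were a median of 2600 bp apart, against 7429.5 bp on 3R. After joining across 500 bp these distances were 8000.5 and 11141.5 bp. The closeness of neighbours in pnt thus depends in part on whether intervals within 500 bp of each other are counted separately.

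**Figure D3:**
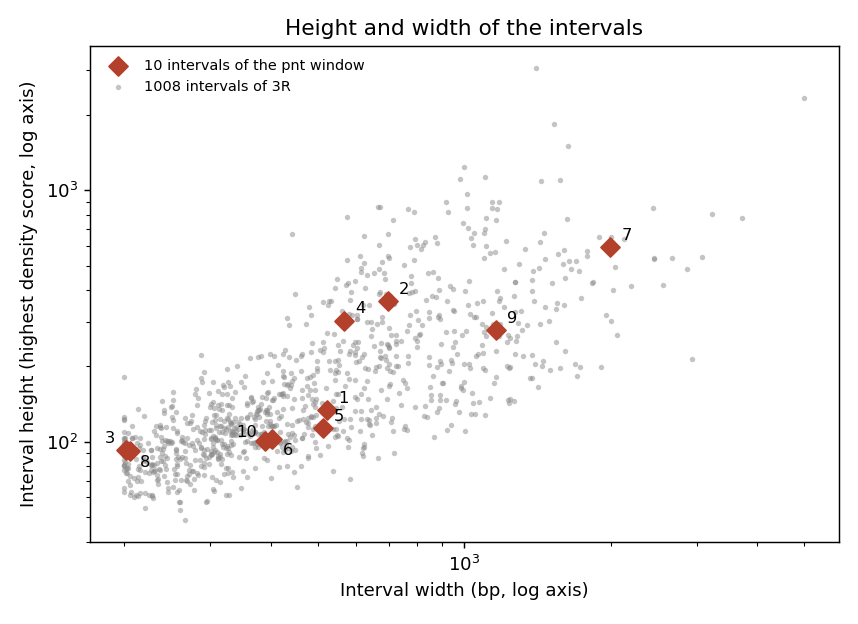
Interval height (highest density score, log axis) against interval width (bp, log axis) for the 10 intervals of the pnt window (red diamonds, numbered by position) and the 1008 intervals of 3R (grey points). The pnt intervals lie within the cloud of the arm, with interval 7 among the wider ones at 1995 bp.

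The pnt window held more intervals than most windows of its size. Of 371 windows of 75 kb laid end to end along 3R, 15 (4.04%) held 10 or more intervals. The median window held 2, and 105 held none. The intervals of the pnt window covered 6654 bp, against a median of 938 bp, and 15 windows (4.04%) had as much covered. Of the 371 windows, 2 overlap the pnt window in part, with 7 and 4 intervals. The 3 windows with most intervals held 22 (25575001 to 25650000), 21 (10500001 to 10575000) and 17 (17400001 to 17475000).

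By mean density the pnt window stood further out than by its number of intervals. Its 750 samples averaged 42.3 (counting SD at least 0.53), against a median of -2.31 over the 371 windows of 3R, and 5 windows (1.35%) averaged as much. Those 5 held from 15 to 22 intervals. Among the 20 windows with 8 to 12 intervals the mean density ran from -4.54 to 40.6 with a median of 18.6, so none of them reached the pnt window. Its highest sample was less unusual, since 9 of these 20 windows and 44 of all 371 had one as high.

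The level between the intervals was raised too. Samples outside listed intervals averaged 27.1 in the pnt window, against a median of -5.16 over the windows of 3R, and 3 of 371 windows (0.81%) reached that level. Of all samples in the pnt window 82.8% were above 0, against a median of 48.0%. The intervals took up 9.07% of the samples of the pnt window and held 36.2% of its density above 0, while intervals held 32.5% on 2.21% of the samples over 3R as a whole. Interval 7 alone held 14.2% of the density above 0 of the pnt window.

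**Figure D4:**
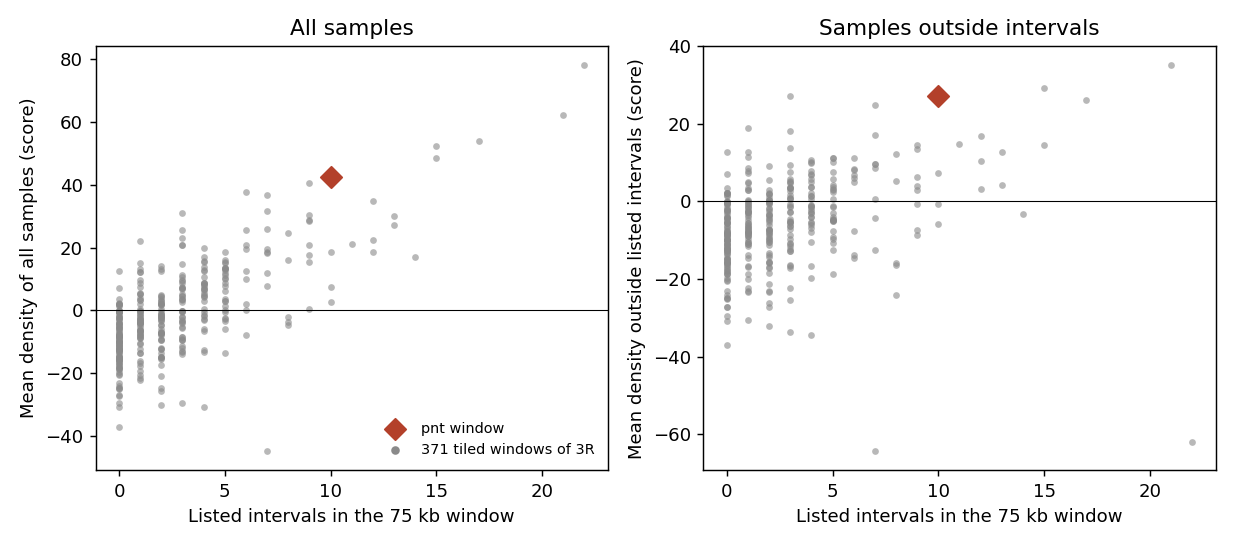
Mean density score of a 75 kb window (vertical axis) against its number of listed intervals (horizontal axis), over all samples on the left and over samples outside listed intervals on the right. The pnt window (red diamond) has 10 intervals and means of 42.3 and 27.1, above the other windows of 8 to 12 intervals in both panels.

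The raised level had edges near the first and the last interval. From interval 1 to interval 10, 15 of 546 samples were below 0 and the lowest was -16.8. The 478 samples of this span that lay outside intervals averaged 41.5 (counting SD at least 0.66), and 96.9% of them were above 0. Samples over 1 kb from any listed interval had a median of 35.8 here, against -1.81 over 3R. None of 510 stretches of this length laid along 3R had a mean or a share above 0 outside intervals as high, but the span was set by the outermost intervals after the values were seen and the 510 stretches were not fitted in that way.

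The level differed among the 4 longest gaps and was above 0 on average in each. It averaged 38.6 over the 16.8 kb between intervals 3 and 4, 35.6 over the 10.7 kb between intervals 5 and 6, and 51.6 over the 6.80 kb between intervals 6 and 7. The 8.36 kb between intervals 8 and 9 averaged 30.9. In the plot of density along the window, these gaps are low beside the tall intervals, but uneven. Their samples ran from -16.8 to 121, the highest being at the edge of interval 4, so the means take in shoulders of the peaks.

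The level was also followed outward from the tallest interval, for as long as a running mean over 2 kb stayed above 0. That mean took in all samples, those inside intervals included, so the peaks helped to hold it up. The stretch is therefore not independent of the intervals, although its ends were not set at their edges. The stretch found in this way ran from 19117641 to 19174641, 57.0 kb, and held all 10 intervals. It was the third longest of 3246 such stretches on 3R, whose median was 2.40 kb. The longer ones, of 69.9 kb at 21230341 to 21300241 and of 69.6 kb at 4925141 to 4994741, held 1 and 4 intervals and averaged 20.4 and 29.5 outside intervals, against 40.3 over pnt. The length was 56.2 kb with a running mean over 1 kb and 59.3 kb with one over 5 kb, and 2 and 9 stretches of 3R were then as long, the pnt stretch included.

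Past interval 10 the sign turned. The density was below 0 at each of 66 samples from 19174541 to 19181041, a run of 6.50 kb with a mean of -49.6 and a lowest value of -89.1. The lowest sample of the window, -92.3, followed at 19183541. Of the 15 bins of 5 kb along the window, 14 had a mean above 0, and the exception was the bin that starts at 19175000, with a mean of -58.8. At the lower end the density was -54.2 at 19117841, 1.16 kb below the midpoint of interval 1. Input has no track of its own here, so a lower input and a higher ChIP signal cannot be told apart in any of these values.

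The raised level did not run on beyond the window. In 25 kb windows, samples outside intervals averaged 35.2, 45.7 and 2.10 in the 3 windows that make up the pnt window. The window just below averaged -10.2 and the one just above -3.62, and neither held an interval. The 3 windows from 50 to 125 kb below the pnt window held 2, 2 and 4 intervals and averaged 11.05 to 20.2, and the 6 windows above it averaged -1.94 to -23.9.

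**Figure D5:**
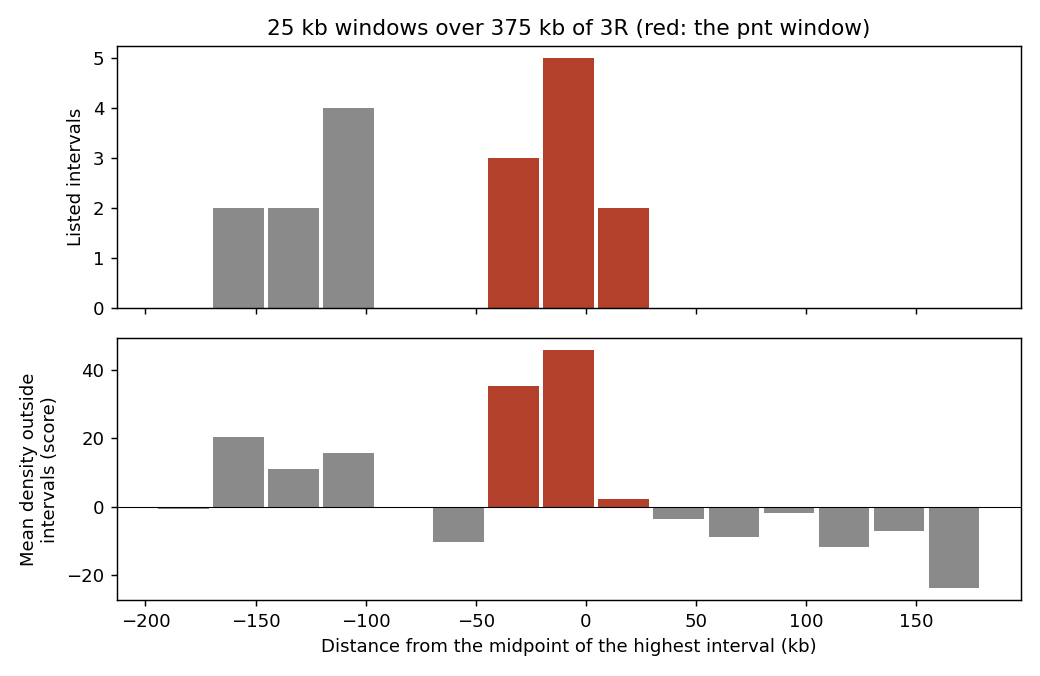
Number of listed intervals (upper panel) and mean density score outside intervals (lower panel) in 25 kb windows over 375 kb of 3R, by distance in kb from the midpoint of the highest interval. The 3 windows in red make up the pnt window and hold 3, 5 and 2 intervals, and the 6 windows above it hold none.

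The pnt window also held density that was not listed. At a size of 50 there were 14 separate runs of samples above 0 that touched no listed interval, against 2.64 per 75 kb over 3R. Most of the 14 lay between interval 1 and interval 10, where samples outside intervals already averaged 41.5. Runs as far below 0 numbered 5, against 8.17 per 75 kb. At 75 there were 3 runs above and 4 below, against 0.83 and 4.08 per 75 kb. The highest unlisted run, at 19184141 to 19184741, reached 101.7 and lay 11.2 kb above the midpoint of the last interval, past the raised stretch. That is higher than intervals 3, 8 and 10 and than 27.1% of the listed intervals of 3R. Its excess over interval 10, which reached 100.7, was less than the counting SD of that interval, at least 8.44. No unlisted run in the window reached the median height of the list.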

How the data were processed

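Per the labels' protocols, Nextera tagmentation was used for all libraries, which were run on a HiSeq2000. Libraries were grouped by title; description fields give GAF in embryos as the ChIP target, and Yki in embryos for the input, and were not followed. CASAVA 1.7.0, Bowtie, BWA and the build dm3 appear in the submitters' processing notes, without their roles. No peak caller is given in the sources used here. Deposited by the authors were 1 interval list with no scores and 1 density score per 100 bp, smoothed and background-subtracted per the file headers. The library codes in the header match no sample label; that they are both ChIP libraries less input is an assumption.

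Interval starts were raised by 1. The tag scale was read from isolated bumps (most frequent sum 4.98, or -1.80 below 0); on that reading 1 tag has an SD of 199 bp. Comparison windows were laid from base 1 of 3R, and ranks among them are descriptions. Calculations used Python 3.11.15, numpy 2.4.6, pandas 2.3.3 and scipy 1.17.1, and were tested on simulated data. All intervals of the window are named. The members, lists and alternatives were chosen with earlier results of these data known; the raised stretch was measured after its values were seen. Replicates cannot be compared, since no library has its own value. The planned search of the pnt promoter for a Scalloped motif was not run.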

Additional observations from a re-analysis of the deposited data

How the results depend on the processing

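The place of the pnt window by its number of intervals moved little, with 3.74% to 4.88% of windows holding as many. For this, windows were slid by 5 kb, shifted by 37.5 kb, narrowed or widened by 5 kb, taken from 4 arms, or counted by overlap or after joining. Sliding, shifting or adding arms changes only the comparison windows, so the count of 10 could not change there. The count was 9 in the narrowed window and 8 after joining. Counting only intervals that reached the median height of the list left 4, and 10.8% of windows then had as many. The mean density of 42.3 became 46.8 in the narrowed and 37.1 in the widened window, 35.6 as a median (0.27% of windows as high) and 27.1 outside intervals. The share of windows with as high a level outside intervals stayed between 0.27% and 0.81% under settings added after seeing the data. By mean density inside, the highest interval was interval 2 at 285, and 11.9% of 3R intervals were as high. Joining across 500 bp moved the median spacing to 8000.5 bp, and widening intervals by 500 bp raised the share of density inside them to 52.2%, which widening can only do. The number of unlisted runs above 0 was 0 at the median height of the list, 1 at 100, 3 at 75 and 14 at 50; below 0 it was 0 at the median height, 4 at 75 and 5 at 50. In all, 38 values kept within their limits and 16 moved. The limits were a set ratio for counts and lengths, a counting error for densities and a binomial interval for shares. That interval treats windows and neighbouring samples as independent. The 38 include values that could not change, such as the pnt count and mean when only the comparison windows differed. Runs absent at the median height of the list were also bound to be absent at 150 or after widening. Apart from the share after widening, the cause of the moves was not tested.

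No paired analysis was possible because both ChIP libraries share 1 value per position, and neither library was left out for the same reason. The promoter search for GGAATG was not run, as no promoter sequence was used here. The depth of each library, and with it the smallest detectable signal, is unknown. A counting SD covers neither the spread between libraries nor that of input.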
